A study of Mus musculus with 10 samples.

Results

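The genes described here encode the nuclear-encoded subunits of respiratory complexes II, III, IV and V and cytochrome c, measured in the liver of obese mice. They were chosen by symbol alone: Sdha to Sdhd, Cyc1, Cycs, Cox5a, Cox5b and every gene whose symbol starts with Uqcr, Cox4i, Cox6, Cox7, Cox8 or Atp5. This choice gave 63 probes of 48 genes among 56605 non-control probes on the array, and no probe was named Cox5b. In all, 22911 genes had a named probe. Of the 63 probes, 62 probes of 47 genes passed the filter on dim signals, and 61 of them were well above background on all 10 arrays. The remaining probe, for the testis isoform Cox8c, lay at or next to the floor of 4 signal units on every array and was not tested.

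Male C57BL/6J +/+ mice were bought at 7 weeks of age, kept for 1 week on standard chow and then given a 60% high-fat diet of 5.5 kcal per g for 4 months. The control group drank no ethanol, and the ethanol group had ethanol in its drinking water for the last 3 of the 4 months, with a daily intake of 5 g per kg body weight during week 1 and of 10 g per kg from then on. Each group had 10 mice, of which 5 were taken at random for 1-colour Agilent arrays, 1 mouse per array, so n = 5 counts animals. Both groups ate the high-fat diet, and no group on standard chow was analysed here. The comparison therefore asks how ethanol changed the liver transcriptome of mice already on that diet.

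Complexes II to V sit in the inner mitochondrial membrane. Complex II (succinate dehydrogenase) passes electrons from succinate to ubiquinone, complex III passes them on to cytochrome c, complex IV (cytochrome c oxidase) hands them to oxygen, and complex V (ATP synthase) makes ATP from the proton gradient that complexes III and IV help to build. Most subunits come from nuclear genes, and the liver, a tissue rich in mitochondria, uses the chain for fatty acid oxidation, urea synthesis and gluconeogenesis. Ethanol oxidation in hepatocytes yields NADH, which is reoxidised by the same chain.

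The share of spots well above background ran from 55.5% to 59.1% across arrays, and no spot was saturated. All 10 hepatocyte markers, Alb and Ttr among them, were well above background on every array, and their summed signal was 4279 to 5670 times the array's 75th percentile in control mice and 4534 to 4966 times in ethanol mice, with 6 of 10 lower and a median log2 fold change of -0.08. Of 10 stellate cell markers 9 were lower, with a median log2 fold change of -0.35, and the smallest limma adjusted p was 0.22. Their summed signal was 92.0 to 122.9 in control mice and 58.0 to 91.5 in ethanol mice, with a narrow gap. Their median deviations from the 10-mouse mean overlapped, with control mouse 3 at -0.05 and ethanol mice 1 and 5 at 0.02 and 0.04. In bulk liver, fewer cells of a type and less RNA per cell cannot be told apart. Of 4 tested cholangiocyte markers 3 were lower, with a median of -0.53 and a summed signal of 8.99 to 27.6 in control mice and 3.31 to 16.4 in ethanol mice, and 4 of 6 lymphocyte markers were lower, with a median of -0.18 and a summed signal of 3.93 to 5.50 and 4.20 to 5.90. Kupffer cell and macrophage markers had a median of -0.0023, with 5 of 11 higher, and endothelial markers a median of -0.02, with 3 of 8 higher. The part of these marker differences in the values below was not tested.

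The promoters of 4 genes are printed first, since nearly all subunit genes lay on the same side and many of them are known targets of the factors NRF1 and GABP. Cox6a1 has 3 matches to the NRF1 motif, of which 2 overlap, and 1 to the GABP motif, Uqcr11 has 1 GABP match and the largest difference in complex III, and Cox7b and Atp5j2, whose groups did not overlap, have none. Each line is the 250 bases before the RefSeq transcription start, from RefSeq build GRCm38.p6, 5′ to 3′ on the gene's strand, with motif matches in capitals.
Cox6a1, chr5:115348959-115349208, minus strand: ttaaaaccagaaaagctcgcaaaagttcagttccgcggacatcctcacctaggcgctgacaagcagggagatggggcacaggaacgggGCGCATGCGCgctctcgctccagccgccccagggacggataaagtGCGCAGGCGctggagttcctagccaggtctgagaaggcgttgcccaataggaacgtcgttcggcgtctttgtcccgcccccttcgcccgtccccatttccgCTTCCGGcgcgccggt
Uqcr11, chr10:80406822-80407071, minus strand: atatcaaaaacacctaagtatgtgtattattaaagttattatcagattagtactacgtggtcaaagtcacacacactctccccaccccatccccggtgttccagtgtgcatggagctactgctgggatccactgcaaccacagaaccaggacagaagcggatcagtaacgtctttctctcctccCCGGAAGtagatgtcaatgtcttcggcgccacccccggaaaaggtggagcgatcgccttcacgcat
Cox7b, chrX:106015450-106015699, plus strand: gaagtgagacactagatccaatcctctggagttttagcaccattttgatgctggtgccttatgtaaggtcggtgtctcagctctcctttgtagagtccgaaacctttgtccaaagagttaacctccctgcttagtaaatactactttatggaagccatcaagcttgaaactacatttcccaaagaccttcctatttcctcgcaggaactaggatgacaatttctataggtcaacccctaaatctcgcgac
Atp5j2, chr5:145191542-145191791, minus strand: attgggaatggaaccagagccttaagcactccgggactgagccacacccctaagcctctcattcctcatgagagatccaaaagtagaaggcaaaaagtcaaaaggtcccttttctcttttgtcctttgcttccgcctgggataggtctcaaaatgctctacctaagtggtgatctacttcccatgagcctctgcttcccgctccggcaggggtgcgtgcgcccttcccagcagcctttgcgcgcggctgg

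The motifs searched on both strands were GCGCANGCG for NRF1, CCGGAAG for GABPA, AAGGTCA for ERRA (the product of Esrra) and AAGATGGCG for YY1. RefSeq gave 39 starts of 36 tested genes, and 15 of the 39 windows also hold part of another annotated gene. Among the 39 windows, 9 held the NRF1 motif (23.1%, against 5.16% of 32851 promoters of all genes), 9 held the GABPA motif (23.1% against 6.91%), 2 the ERRA motif (5.13% against 4.08%) and 1 the YY1 motif (2.56% against 0.606%). At least 1 of the 4 motifs was found in 15 windows (38.5% against 15.4%). In Cox6a1 the NRF1 matches span bases 162 to 154, 161 to 153 and 117 to 109 before the start and the GABPA match bases 16 to 10, and in Uqcr11 the GABPA match spans bases 66 to 60. The median log2 fold change with ethanol was 0.17 for the 15 genes with any motif and 0.20 for the 21 without one. By motif, the medians were 0.15 with and 0.20 without an NRF1 match, and 0.20 with and 0.18 without a GABPA match. Among genes whose groups did not overlap, Atp5l has NRF1, GABPA and ERRA matches, and Atp5pb, Atp5d, Atp5j2, Cox5a, Cox7a2 and Cox7b have none. A match describes the letters only, and the promoters of all genes were not matched to these windows in base composition.

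No subunit gene passed the test, but nearly all lay slightly on the same side. Of the 62 probes tested, 58 had higher mean signal with ethanol under scaling to the 75th percentile and 49 under quantile normalization, while 61.2% and 51.3% of all 31110 probes tested were higher. The median log2 fold change of the 62 probes was 0.17, which is 12.3% more signal, against 0.05 for all probes. With quantile normalization the 2 medians were 0.06 and 0.01. With limma, 0 of the 62 probes had an adjusted p under 0.05, against 0.00964% (3 probes) of all probes, 0.00643% higher and 0.00321% lower, and the smallest adjusted p was 0.29, for Atp5d.

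At an unadjusted limma p under 0.05, 19 of the 62 probes were higher and 1 was lower with ethanol, against 8.57% higher and 4.28% lower of all probes. The 19 became 9 without control mouse 1, 11 without ethanol mouse 4, 6 with slide as a fixed block and 0 under quantile normalization, where 1 probe was lower. In other settings the 19 rose, to 31 without the filter, 27 without ethanol mouse 3, 25 without the arrays of slide column 1 and 24 without control mouse 2. The groups did not overlap for 8 probes, all higher with ethanol, and for 0 probes lower with ethanol, where 1.80% of all probes were higher and 0.955% lower without overlap. Under quantile normalization this number was 0, with 1.10% of all probes higher and 1.49% lower without overlap.

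With the brightest probe of each gene, 44 of 47 genes were higher, where 56.8% of 15089 genes were. The 3 that were lower, Cox6a2, Cox7a1 and Cox7b2, are all isoforms of complex IV known from muscle, heart or testis. Of the 6 tested isoforms of that kind, 3 were higher. Setting the 6 aside removes every lower gene, so the other 41 were all higher by this choice and not by a separate result. Under scaling to the 75th percentile the 41 were higher by 0.04 to 0.30 on the log2 scale (2.61% to 23.1%). Under quantile normalization 33 of the 41 were higher, with a range from -0.08 to 0.18. By complex, the median was 0.10 for the 4 genes of complex II, 0.14 for the 9 of complex III, 0.16 for the 16 of complex IV and 0.19 for the 17 of complex V. This order changed with the setting: within slide 3 the probe medians were 0.26, 0.03, -0.01 and 0.10 for complexes II, III, IV and V.

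**Figure D1:**
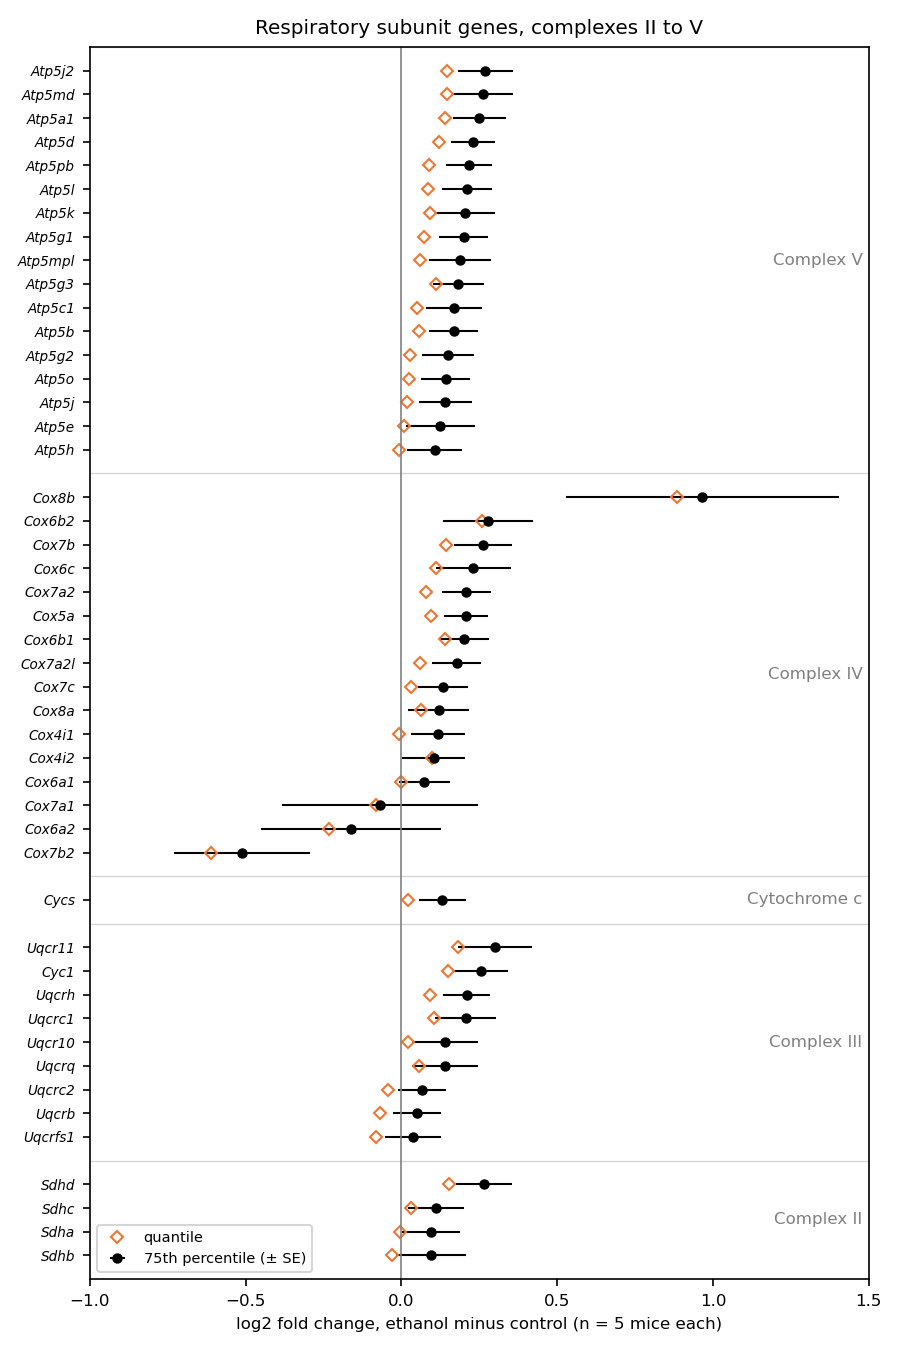
Log2 fold change (ethanol minus control) of the 47 tested subunit genes, grouped by complex, with the brightest probe of each gene; filled circles show scaling to the 75th percentile with bars for limma's standard error (5 mice per group), and open diamonds show quantile normalization. Of the 47 circles, 44 lie above 0, most between 0.04 and 0.30; Cox8b at 0.97 and Cox7b2 at -0.51 have the widest distance from 0, and diamonds lie to the left of the circles for every complex.

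The shift also varied between mice of a group. The median deviation of the 62 probes from their mean over the 10 mice was -0.21, -4.8e-05, -0.07, -0.04 and -0.09 in control mice 1 to 5 and 0.10, 0.09, -0.03, 0.15 and 0.11 in ethanol mice 1 to 5 (log2, 75th percentile scaling). Control mouse 1 was the lowest, and ethanol mouse 3 lay below control mouse 2, so the groups overlapped. The means were -0.08 ± 0.08 (SD, n = 5) and 0.08 ± 0.07 (SD, n = 5). Under quantile normalization they were -0.03 ± 0.03 (SD, n = 5) and 0.03 ± 0.05 (SD, n = 5), and ethanol mouse 3, at -0.05, lay below every control mouse but mouse 1.

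The arrays lay on 3 slides. Slide 1 held control mice 4 and 5 and ethanol mouse 4, slide 2 held control mice 1 and 3, and slide 3 held control mouse 2 and ethanol mice 1, 2, 3 and 5. Within slide 1, 55 of 62 probes were higher with ethanol with a median of 0.20. Within slide 3, 39 of 62 were higher with a median of 0.06, and complex IV had a median of -0.01. The difference was smaller within slide 3, where 1 control array stands against 4 ethanol arrays. With slide as a fixed block in the fit the median was 0.13. Control mice 1, 4 and 5 lay in column 4 of their slides and ethanol mice 2 and 3 in column 1, and with the column as a covariate the median was 0.18.

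**Figure D2:**
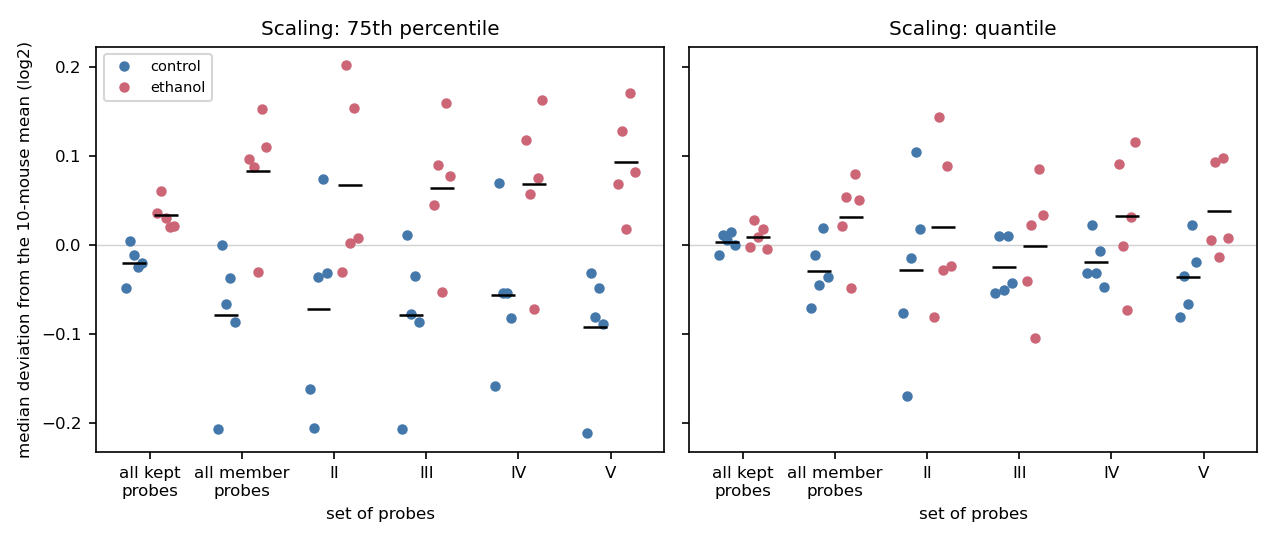
Median log2 deviation from the mean of the 10 mice for all tested probes, all 62 subunit probes and the probes of each complex, 1 point per mouse (5 control in blue, 5 ethanol in red) with the group mean as a bar, under 75th percentile scaling (left) and quantile normalization (right). For the 62 subunit probes control mice run from -0.21 to -4.8e-05 and ethanol mice from -0.03 to 0.15 on the left, and the groups lie closer together on the right.

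In complex II all 4 genes were higher under scaling to the 75th percentile, and 2 of them under quantile normalization. Sdha, which carries the flavin, and Sdhb, which carries the iron-sulphur clusters, had log2 fold changes of 0.10 ± 0.09 (SE) and 0.09 ± 0.11 (SE), and under quantile normalization -0.01 and -0.03. Sdhc, a membrane anchor, had 0.11 ± 0.09 (SE). Each of these 3 had 95% intervals that include 0, with upper ends between 0.30 and 0.34 on the log2 scale.

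Sdhd, the other membrane anchor, had the largest difference of the 4 under scaling to the 75th percentile. Its log2 signals relative to the 75th percentile were 5.60, 5.59, 5.86, 5.89 and 5.66 in control mice 1 to 5 and 6.03, 6.00, 5.84, 6.00 and 6.06 in ethanol mice 1 to 5. All ethanol mice but mouse 3 lay above every control mouse, and mouse 3 lay below control mice 3 and 4. The log2 fold change was 0.27 ± 0.09 (SE; limma adjusted p = 0.32), and 0.15 ± 0.08 (SE) under quantile normalization.

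In complex III the electron carrier Cyc1, cytochrome c1, had log2 signals of 5.15, 5.16, 5.30, 5.34 and 5.30 in control mice 1 to 5 and 5.34, 5.63, 5.62, 5.55 and 5.40 in ethanol mice 1 to 5. The highest control mouse lay just above the lowest ethanol mouse. This gave a log2 fold change of 0.25 ± 0.09 (SE; limma adjusted p = 0.32). Uqcrfs1, the Rieske iron-sulphur protein and the other redox subunit, was at 0.04 ± 0.09 (SE), and at -0.08 ± 0.09 (SE) under quantile normalization.

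The core proteins Uqcrc1 and Uqcrc2 had 0.21 ± 0.10 (SE) and 0.07 ± 0.08 (SE), the latter turning to -0.04 under quantile normalization. Among the 5 small subunits, Uqcr11 had the largest difference of the complex, at 0.30 ± 0.12 (SE; limma adjusted p = 0.35), and Uqcrb the smallest, at 0.05 ± 0.08 (SE). Uqcr11 signals were 6.98, 7.41, 7.21, 7.14 and 7.04 in control mice 1 to 5 and 7.56, 7.40, 7.14, 7.53 and 7.66 in ethanol mice 1 to 5. Ethanol mice 1, 4 and 5 lay above every control mouse and mice 2 and 3 among them. Uqcrh, the hinge protein at the cytochrome c docking site, had 0.21 ± 0.08 (SE; limma adjusted p = 0.33), and Uqcr10 and Uqcrq both had 0.14.

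Cycs, the mobile electron carrier cytochrome c, had 2 probes that differed in sign. The brighter one had 0.13 ± 0.08 (SE), and the other -0.02 ± 0.09 (SE). It was the only one of 13 genes with several probes whose probes disagreed in direction.

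Complex IV is given here by the kind of subunit, a choice that places all 3 lower genes among the dimmer tissue-restricted isoforms. All 10 widely expressed subunits were higher with ethanol under scaling to the 75th percentile, with a median of 0.19 and a range of 0.07 to 0.26, and 8 of the 10 were higher under quantile normalization, with a median of 0.07. Of the 6 tested tissue-restricted isoforms, 3 were higher and 3 were lower under both scalings, and Cox6a2, lower in both, had 0.01 with normexp background correction.

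Cox5a, a regulatory subunit on the matrix side, had the smallest p of the complex. Its log2 signals were 7.00, 7.00, 7.17, 7.18 and 7.10 in control mice 1 to 5 and 7.31, 7.34, 7.29, 7.23 and 7.33 in ethanol mice 1 to 5. All 5 ethanol mice lay above all control mice. The groups differed on the log2 scale by 0.21 ± 0.07 (SE; limma adjusted p = 0.32), and 0.10 ± 0.07 (SE) under quantile normalization, where the groups overlapped.

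Cox7b, a small subunit whose promoter is printed above, had log2 signals of 5.88, 6.18, 6.14, 6.10 and 6.04 in control mice 1 to 5 and 6.31, 6.21, 6.20, 6.54 and 6.39 in ethanol mice 1 to 5. The ethanol mice again lay above the control mice, but mouse 3 by only a narrow margin. The log2 fold change of Cox7b was 0.26 ± 0.09 (SE; limma adjusted p = 0.33). Cox7a2, the widely expressed form of subunit 7a, had 0.21 ± 0.08 (SE), also without overlap. Cox6b1, at 0.20 ± 0.08 (SE), and Cox7a2l, at 0.18 ± 0.08 (SE), were also higher at an unadjusted p under 0.05.

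Cox4i1, the main liver form of subunit 4, had 0.12 ± 0.09 (SE), Cox6a1 0.07 ± 0.08 (SE) and Cox8a 0.12 ± 0.10 (SE). The first 2 turned slightly negative under quantile normalization, at -0.0059 and -0.0023. Cox6c had 0.23 ± 0.12 (SE) and Cox7c 0.13 ± 0.08 (SE), so the other members of the group lay in between.

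The 6 isoforms of muscle, lung and testis lay outside the brightest 25% of probes. The SD within groups ran from 0.23 to 0.74 on the log2 scale for 5 of them, while Cox4i2, at 0.14, lay below Cox6c, at 0.18. Cox7a1, the heart and skeletal muscle form of subunit 7a, had log2 signals of 1.78, 1.44, 1.23, 1.44 and 1.47 in control mice 1 to 5 and 2.08, 0.86, 0.49, 1.33 and 2.26 in ethanol mice 1 to 5. The ethanol group spanned the control group on both sides, and its SD was 0.76 against 0.20. The fold change, -0.07 ± 0.31 (SE), covers both directions. Ethanol mice 2 and 3, the lowest, were the 2 arrays in column 1 of their slide, and without them the log2 fold change was 0.42.

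Cox8b, the form of subunit 8 known from heart, muscle and brown fat, had log2 signals of -4.41, -3.95, -2.63, -4.22 and -3.21 in control mice 1 to 5 and -3.36, -2.33, -1.74, -2.42 and -3.75 in ethanol mice 1 to 5. Ethanol mice 2, 3 and 4 lay above every control mouse, and mice 1 and 5 lay among them. The log2 fold change was 0.97 ± 0.44 (SE; limma adjusted p = 0.39), 0.35 with normexp background correction, 0.51 without the arrays of slide column 1 (ethanol mice 2 and 3) and 0.53 with the column as a covariate. The offset of 50 used with normexp by itself shrinks the differences of probes as dim as this one. Ethanol mice 2 and 3, low for Cox7a1, were the highest for Cox8b, so the 2 muscle isoforms lay at opposite ends in the same arrays.

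Cox7b2, a testis isoform, was the one member lower at an unadjusted p under 0.05. Its log2 signals were -3.69, -3.54, -3.75, -3.93 and -3.61 in control mice 1 to 5 and -4.39, -3.97, -3.53, -4.92 and -4.26 in ethanol mice 1 to 5. Ethanol mouse 3 lay level with the highest control mouse, and the other 4 were below the control mice. This gave a log2 fold change of -0.51 ± 0.22 (SE, limma adjusted p = 0.37). It was -0.61 ± 0.19 (SE, limma adjusted p = 0.31) under quantile normalization, and -0.10 with normexp background correction, whose offset shrinks the differences of dim probes. The log2 fold change was -0.33 without ethanol mouse 4, -0.68 without ethanol mouse 3, -0.82 without the arrays of slide column 1 and -0.92 with the column as a covariate. Its spot was well above background on 4 of 5 ethanol arrays.

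Cox4i2, the lung form of subunit 4, had 0.10 ± 0.10 (SE), Cox6b2, a testis form, 0.28 ± 0.15 (SE) and Cox6a2, the heart and muscle form, -0.16 ± 0.29 (SE). Of 7 striated muscle markers, Ckm, Myh1 and Myh4 were not well above background on any array and 2 passed the filter, Tnnt3 at 0.29 ± 0.12 (SE) and Myh6 at 0.69 ± 0.32 (SE). Their summed signal was 0.325 to 0.497 times the 75th percentile in control mice and 0.444 to 0.658 times in ethanol mice, and both were highest in ethanol mice 2 and 3, as Cox8b was. Their part in the Cox8b value was not tested. Of 6 adipocyte markers, Ucp1, Adipoq and Plin1 were not well above background on any array and 2 passed the filter. Lep, leptin, had 0.13 ± 0.10 (SE). Cidea, a lipid droplet protein, was well above background on every array, with a log2 fold change of 1.24 ± 0.24 (SE; limma adjusted p = 0.20) and no overlap between groups.

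**Figure D3:**
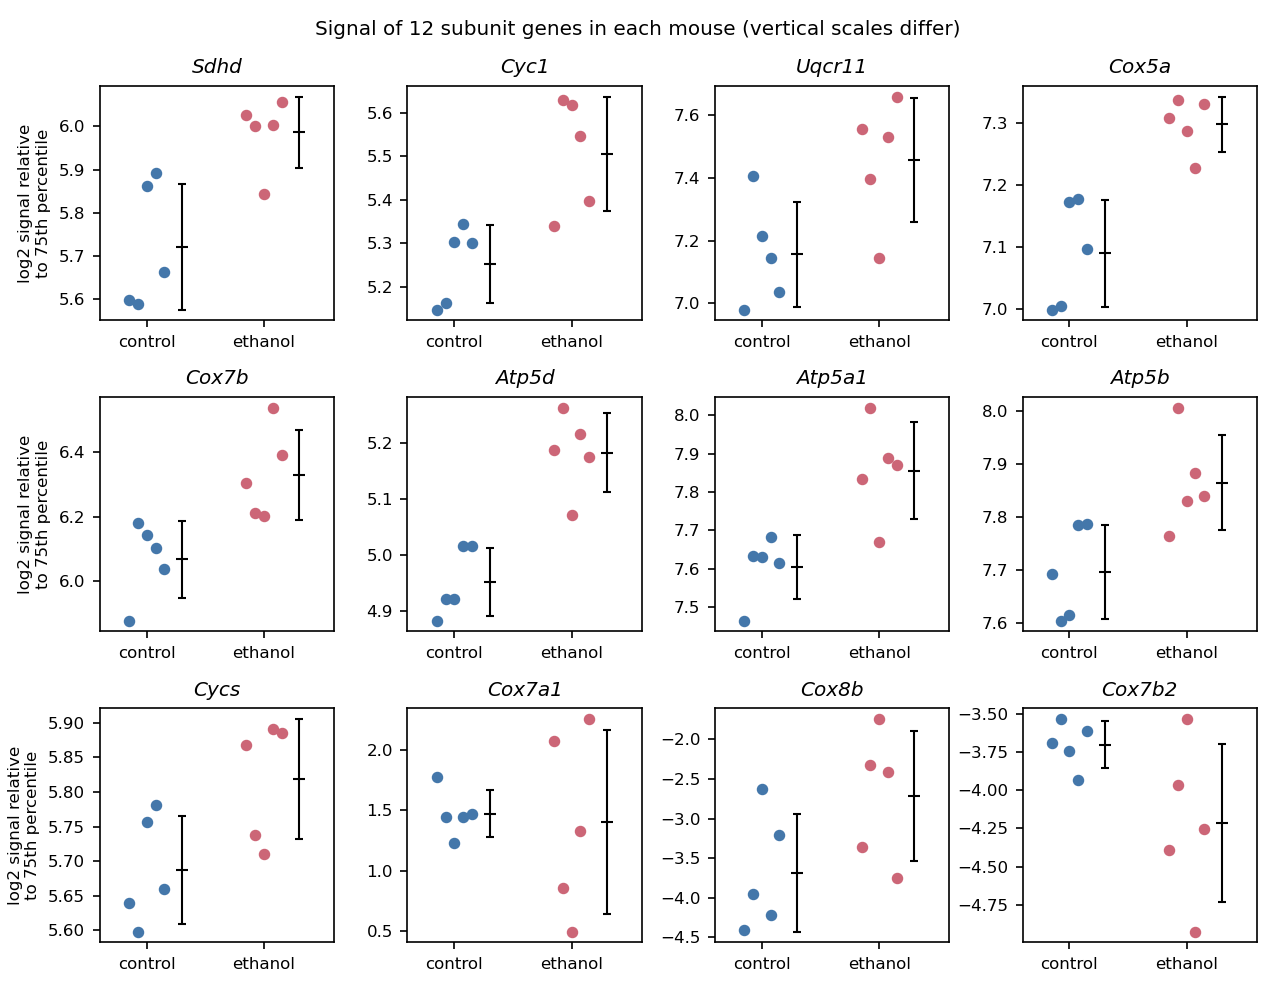
Log2 signal, scaled to the 75th percentile of its array, of 12 subunit genes in each of 5 control (blue) and 5 ethanol (red) mice, with group mean and SD as a bar beside the points; vertical scales differ between panels. Groups do not overlap for Cox5a, Cox7b and Atp5d, overlap in part for Sdhd, Cyc1, Uqcr11, Atp5a1, Atp5b, Cycs, Cox8b and Cox7b2, and for Cox7a1 the ethanol mice span the control mice on both sides.

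In complex V the direction was shared by every probe in most settings. All 26 of its probes and all 17 of its genes were higher under scaling to the 75th percentile. Of the 26 probes, 24 were higher under quantile normalization, 23 within slide 1 and 19 within slide 3. At an unadjusted p under 0.05 were 8 of the 17 genes, and 4 genes did not overlap between groups, where 7.51% and 1.97% of all 15089 genes were higher with ethanol by these measures.

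In the catalytic head and its central stalk, Atp5d, the delta subunit of the stalk, had the smallest p of all 47 genes. Its log2 signals were 4.88, 4.92, 4.92, 5.02 and 5.02 in control mice 1 to 5 and 5.19, 5.26, 5.07, 5.22 and 5.18 in ethanol mice 1 to 5. The lowest ethanol mouse lay above the highest control mouse. The groups differed on the log2 scale by 0.23 ± 0.07 (SE; limma adjusted p = 0.29), and 0.12 ± 0.07 (SE) under quantile normalization.

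Atp5a1, the alpha subunit, had log2 signals of 7.47, 7.63, 7.63, 7.68 and 7.62 in control mice 1 to 5 and 7.83, 8.02, 7.67, 7.89 and 7.87 in ethanol mice 1 to 5. Only ethanol mouse 3 lay within the control range. The log2 fold change of Atp5a1 was 0.25 ± 0.08 (SE; limma adjusted p = 0.32). Atp5b, the catalytic beta subunit, had 0.17 ± 0.08 (SE), with its 3 probes between 0.17 and 0.21. The gamma subunit Atp5c1 had 0.17 ± 0.09 (SE) and the epsilon subunit Atp5e 0.12 ± 0.11 (SE).

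The 3 genes of the c-ring, Atp5g1, Atp5g2 and Atp5g3, which encode the same mature protein, had 0.20, 0.15 and 0.18. They lay within 1 standard error of each other. In the peripheral stalk, which holds the head still, Atp5pb had 0.22 ± 0.07 (SE; limma adjusted p = 0.32) without overlap, Atp5o and Atp5j had 0.14 and Atp5h 0.11.

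The small subunits of the membrane part had the highest median of the complex, 0.21 for 5 genes. Atp5j2, subunit f, had log2 signals of 5.84, 6.05, 6.13, 5.96 and 5.94 in control mice 1 to 5 and 6.30, 6.19, 6.14, 6.44 and 6.20 in ethanol mice 1 to 5. Its groups were separated by a narrow gap between control mouse 3 and ethanol mouse 3, and the log2 fold change was 0.27 ± 0.09 (SE; limma adjusted p = 0.31). Atp5l, subunit g, had 0.21 ± 0.08 (SE), also without overlap, Atp5md 0.26 ± 0.10 (SE), Atp5k 0.20 ± 0.10 (SE) and Atp5mpl 0.19 ± 0.10 (SE). Dmac2 and Dmac2l, once named for this complex but no longer under its prefix, were not counted and had 0.10 and 0.13.

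The subunit genes also varied together among mice of the same group. After removing group means, the correlation of a gene with the median of the other members had a median of 0.70 over the 47 genes, and was over 0.5 in 32 of them (10 mice; a description, since all values share the scaling of their array). Atp5e, Cox7c and Atp5o were the most alike, at 0.93, 0.93 and 0.92. The genes with values below 0 were Atp5b, Cyc1, Cox8b, Cox4i2 and Cox7b2. Cyc1 was at -0.17 and Cox5a at 0.09.

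The subunit genes are bright, so their shift was set beside that of other bright probes. Of the 62 probes, 56 lay in the brightest 25% of all tested probes, and their median was 0.17, where that whole class had a median of 0.06 with 68.8% of its probes higher. Under quantile normalization the class had a median of 0.0023. Brightness was not matched within the class, where control means of member probes ran from 2.10 (an Atp5b probe) to 9.20 (Cox6a1). No test was made of the difference between members and class.

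Other genes of the pathway were mostly higher too, and none of them passed the test. All 37 genes listed for complex I, the NADH-oxidising entry of the chain, were higher under scaling to the 75th percentile, with a median of 0.15. Under quantile normalization 28 of the 37 were higher, with a median of 0.05. Ndufs4 had 0.30 ± 0.09 (SE). Ndufa4, kept in this list although its product is now assigned to complex IV, had 0.27 ± 0.10 (SE). The factors that assemble complexes II to V had a median of 0.10, with 29 of 33 higher, Cox14 at 0.18 ± 0.07 (SE) and Atpaf2 at 0.18 ± 0.08 (SE).

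Of 14 enzymes of the tricarboxylic acid cycle 11 were higher, with a median of 0.08, and 7 under quantile normalization. Idh2 and Idh3a, which make 2-oxoglutarate, had -0.13 and -0.12. Of 78 mitochondrial ribosomal proteins 67 were higher with a median of 0.10, and 53 under quantile normalization with a median of 0.04. Mrpl12 had 0.36 ± 0.10 (SE). Of 83 cytosolic ribosomal proteins 80 were higher with a median of 0.11, but 39 under quantile normalization with a median of -0.01.

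The ATP synthase partners and nucleotide carriers had a median of 0.07, with 8 of 9 higher, and of -0.03 under quantile normalization, with 3 of 9 higher. Atpif1, the inhibitor of the ATP synthase, had 0.11 ± 0.18 (SE). Of 15 regulators of mitochondrial biogenesis 11 were higher with a median of 0.07. The coactivator Ppargc1a had -0.19 ± 0.15 (SE), and the factors Nrf1, Gabpa and Esrra, whose motifs were searched above, 0.07 ± 0.10 (SE), 0.02 ± 0.08 (SE) and 0.15 ± 0.13 (SE). Tfam, which packs and transcribes mitochondrial DNA, had 0.08 ± 0.09 (SE). None of these lists had a gene with an adjusted p under 0.05 in limma, and no probe for a mitochondrially encoded subunit was named here, so the core subunits made inside mitochondria were not analysed.

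**Figure D4:**
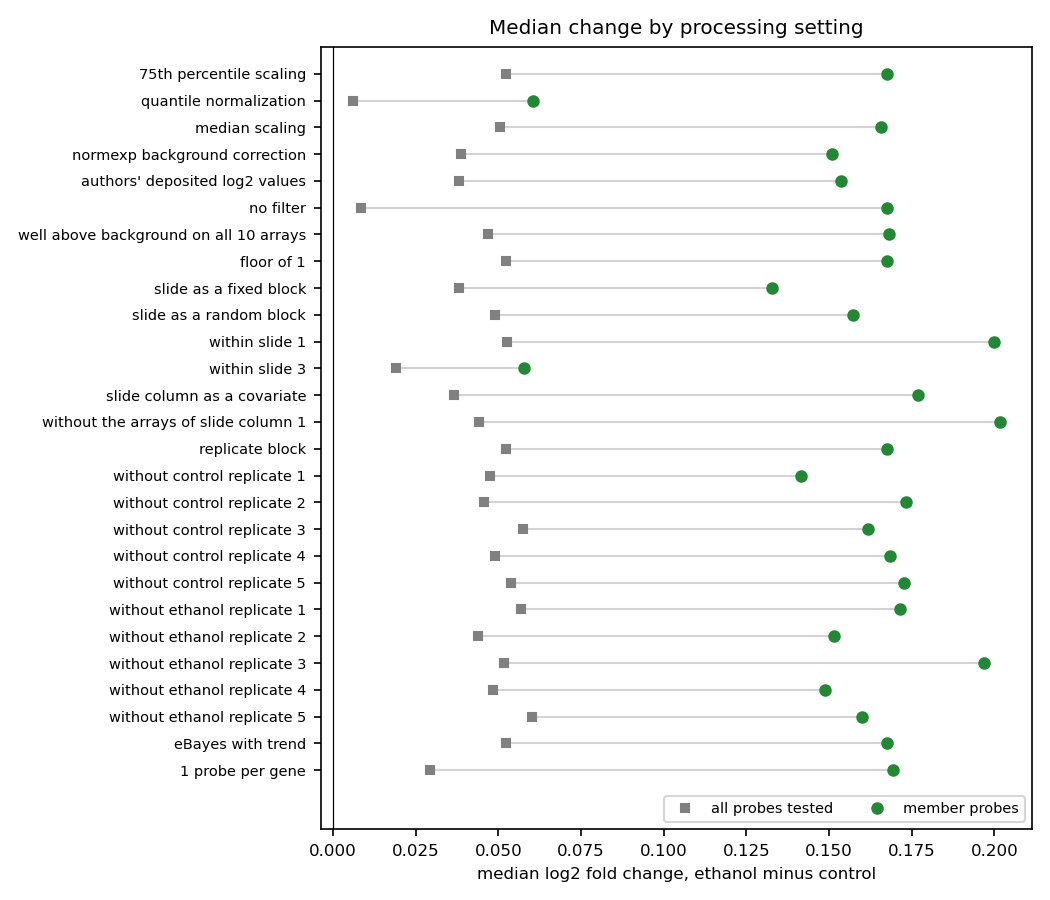
Median log2 fold change (ethanol minus control) of the subunit probes (green circles) and of all probes tested (grey squares) under the 75th percentile scaling and each of the 26 other settings. The subunit median lies above that of all probes in every setting shown, between 0.06 with quantile normalization or within slide 3 and 0.20 without the arrays of slide column 1.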

How the data were processed

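RNA of 10 livers was amplified from 150 ng and labelled with Cy3, per the labels' protocols. The authors deposited 1 scanner table per array with linear spot intensities, made per the file headers with Agilent Feature Extraction 10.7.3.1 on a design of build mm9. They also deposited a table of log2 values. Its differences between arrays had r = 1.00 with those of log2 processed intensity over 12336 bright probes; it is scaled per array and centred per probe on an unknown value, and its column medians were -0.12, 0.08, 0.02, -0.07 and -0.07 for control and 0.02, -0.0037, -0.01, -0.0020 and 0.05 for ethanol mice 1 to 5.

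Control and outlier spots were left out. The processed signal was divided by the array's 75th percentile (277 to 383 signal units), floored at 4 units and put on a log2 scale, and spots of 1 probe were averaged. Probes well above background on at least 4 of 5 arrays of a group were kept. The files used hold no gene names, so names came from each probe's accession through RefSeq's table for GRCm38.p6, which named 32994 probes; 23611 stayed unnamed. A gene with several probes is given by its brightest. Ethanol was set against control in limma 3.58.1 (lmFit, eBayes, R 4.3.3), with Benjamini-Hochberg adjustment over all kept probes and a threshold of 0.05. The fit was tested on simulated data with 5 arrays per group. There a log2 fold change of 0.25 passed in 0.8% of changed probes, 0.5 in 26% and 1 in 63.2%. The number of arrays limits the precision. The smallest root mean square difference between arrays, 0.335 on the log2 scale, gave no sign of a repeated sample.

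The members and lists were chosen with earlier results of these data known. Named genes are up to 5 per complex with the smallest p, the one nearest 0 and genes named in advance, and for each list up to 2 genes with the smallest p; the other members, Idh2, Idh3a, Cidea, Lep, Tnnt3, Myh6 and the motifs were added after the values were seen, and the NRF1 motif was shortened by 1 letter after a first search had been seen, which admits more matches, among members and among all promoters. One gene that the rule names is not reported here. Kinase and binding-protein genes sharing the ribosomal prefix, and members, were removed from the lists after the data were seen. Alternatives were another scaling, normexp with an offset of 50 on median signals (mean signals were not used here), the deposited log2 values, filter, floor, slide, slide column, replicate block, variance trend, 1 probe per gene and leaving out each array.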

Additional observations from a re-analysis of the deposited data

Results flagged for a closer look

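In 88 group values tested for a single mouse far from the others, 1 stood out, where chance gives about 1 in 20. Sdhd in ethanol mouse 3 had a log2 signal of 5.84, and the other 4 ethanol mice lay between 6.00 and 6.06. The gap made up 0.738 of the group's range, against a critical value of 0.71.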

How the results depend on the processing

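No subunit probe passed the threshold under any of the 26 other settings, where between 39 and 60 of the probes had higher signal with ethanol. The median log2 fold change of the subunit probes was 0.060 with quantile normalization, 0.058 within slide 3, 0.20 within slide 1 and 0.14 to 0.20 when 1 array was left out. The cause of these moves was not tested. Over all probes, 3 passed; 1 passed without the filter, and 0 with slide as a fixed block, within slide 1, within slide 3, with slide column as a covariate or with the replicate block, and 0 to 6 when 1 array was left out, with 6 without ethanol mouse 4, 1 without ethanol mouse 1 and 0 without ethanol mouse 2 or any 1 control mouse. Replicate numbers do not pair the mice: same-numbered mice had correlations of 0.20, 0.05, 0.26, 0.05 and -0.17, and 0 of 5 correlated best with its own number. With the replicate block the subunit median stayed at 0.17, and 11 in place of 19 probes were higher at an unadjusted p under 0.05.

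Of 35 named members, 22 kept their direction in every setting that tested them. That was all 26 settings, except for Cox7b2, which was tested in 25. With quantile normalization the log2 fold changes turned to -0.0063 for Atp5h, -0.0059 for Cox4i1, -0.0023 for Cox6a1, -0.0051 for Sdha, -0.031 for Sdhb, -0.044 for Uqcrc2 and -0.080 for Uqcrfs1. With normexp background correction Cox6a2 was 0.014 and Uqcrc2 -0.0060. Within slide 3, Atp5c1 was -0.021, Atp5h -0.063, Atp5o -0.028, Cox4i1 -0.028, Cox4i2 -0.014, Cox6a1 -0.054, Sdhb -0.12, Sdhc -0.075 and Uqcrc2 -0.021. With slide column as a covariate Cox4i2 was -0.070, Cox7a1 0.39 and Sdhb -0.018, and without the arrays of slide column 1 Cox4i2 was -0.011 and Cox7a1 0.42. Leaving out 1 array gave -0.28 to 0.16 for Cox7a1, -0.34 to 0.057 for Cox6a2 and -0.013 to 0.083 for Uqcrfs1. Causes were not tested. Slide and group overlap in part, Cox7b2 was well above background on 9 of 10 arrays, and the 5 arrays per group limit what differences of this size can pass.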
